A study of Mus musculus with 6 samples.

Results

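The mitochondrial ribosomal protein genes were taken as the protein-coding genes of the count table whose symbol starts with Mrpl or Mrps followed by a digit and that reached 10 counts in 2 or more of the 6 libraries. All 78 genes with such a symbol passed, out of 55416 genes in the table and 16296 genes that passed the same filter, and the lowest count of any of them in any library was 181. By known structure 51 of them belong to the large subunit, including Mrps18a and Mrps30 despite their names, and 26 to the small subunit. Mrps36 is counted apart, because its product is now known as a subunit of the 2-oxoglutarate dehydrogenase complex. A further 6 genes of the same naming pattern are processed pseudogenes and were not members.

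Coronary endothelial cells (ECs) were sorted by FACS for membrane GFP from ventricles of mouse hearts at E15.5, and RNA-Seq libraries were made from 3 ControlΔEC and 3 Wt1KOΔEC samples labelled as biological replicates. ControlΔEC embryos were Pdgfb-CreERT2/+; Wt1 +/+; R26-mTmG/+, and Wt1KOΔEC embryos were Pdgfb-CreERT2/+; Wt1 LoxP/LoxP; R26-mTmG/+. Both genotypes therefore carried the Cre and the reporter, and both came from dams given tamoxifen by oral gavage at 75 mg/kg between E11.5 and E13.5. The Cre is driven by the Pdgfb promoter and the reporter turns green after recombination, so that the sort kept recombined cells of either genotype and says nothing of whether both Wt1 copies were lost in each cell. The comparison asks how ECs that lost Wt1 during formation of the coronary plexus differ from ECs that kept it. Whether the hearts of several embryos were pooled in a library is not given in the sources used here, and embryos of both genotypes arose in the same matings.

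Mitochondria translate a handful of messages of their own genome, all of them for subunits of the respiratory chain and ATP synthase, on ribosomes whose RNA is made in the organelle and whose proteins are all encoded in the nucleus and imported. The small subunit binds the message and hosts decoding, while the large subunit joins amino acids and feeds the new chain into the inner membrane. Some of these proteins have counterparts in bacterial ribosomes and others exist only in mitochondria, and promoters of the genes are known to be rich in sites for ETS family proteins such as GABP, for NRF1 and for YY1.

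To show what these promoters hold, the 250 bases before the RefSeq start of 4 small-subunit genes are given on build GRCm38.p6, 5′ to 3′ along the strand of the gene, with the matches to the motifs described next in capitals. Mrps5 (chr2:127587176-127587425, plus strand), Mrps6 (chr16:92058086-92058335, plus strand) and Mrps12 (chr7:28741822-28742071, minus strand) had the smallest p-values among the 78 genes. Mrps11 (chr7:78782881-78783130, plus strand) has a neighbour among the members, Mrpl46, which runs the other way. Their starts lie 30 bases apart by the GENCODE annotation on GRCm39, and not by the RefSeq starts used for the windows.
Mrps5: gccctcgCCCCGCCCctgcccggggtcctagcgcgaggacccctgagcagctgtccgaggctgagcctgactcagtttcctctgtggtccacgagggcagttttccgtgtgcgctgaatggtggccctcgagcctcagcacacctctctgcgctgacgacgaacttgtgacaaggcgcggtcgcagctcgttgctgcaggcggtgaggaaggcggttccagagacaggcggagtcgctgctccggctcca
Mrps6: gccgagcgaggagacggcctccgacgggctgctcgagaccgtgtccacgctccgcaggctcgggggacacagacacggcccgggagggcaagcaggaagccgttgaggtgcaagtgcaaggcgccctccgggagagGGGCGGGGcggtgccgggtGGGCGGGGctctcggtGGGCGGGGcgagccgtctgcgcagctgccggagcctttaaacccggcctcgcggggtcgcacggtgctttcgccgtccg
Mrps12: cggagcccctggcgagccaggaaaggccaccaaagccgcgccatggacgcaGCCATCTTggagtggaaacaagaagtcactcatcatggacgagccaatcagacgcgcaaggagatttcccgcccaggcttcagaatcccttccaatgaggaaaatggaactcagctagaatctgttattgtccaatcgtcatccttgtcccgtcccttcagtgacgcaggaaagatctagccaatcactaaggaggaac
Mrps11: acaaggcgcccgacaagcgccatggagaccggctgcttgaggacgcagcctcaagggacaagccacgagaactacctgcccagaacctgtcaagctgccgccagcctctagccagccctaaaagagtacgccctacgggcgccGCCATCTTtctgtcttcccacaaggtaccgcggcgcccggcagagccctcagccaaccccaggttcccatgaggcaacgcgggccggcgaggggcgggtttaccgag

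The Mrps6 window held GGGCGGGG, a motif of SP and KLF family proteins, starting 114, 95 and 79 bases before the start, and the Mrps5 window held it once on the other strand, 243 bases before the start. The Mrps12 and Mrps11 windows each held the YY1 motif AANATGGC on the other strand, printed as GCCATCTT, at 199 and 107 bases before the start. A window of 250 bases before to 50 after the start was given for 69 of the 78 genes, and Mrpl4, Mrpl13, Mrpl15, Mrpl19, Mrpl38, Mrpl54, Mrps28, Mrps34 and Mrps35 had none.

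The windows were searched on both strands, each motif on its own and whether or not its match overlapped that of another. The ETS motif CCGGAAG was in 25 of the 69 windows (36.2%) against 9.12% of the windows of all 27025 genes, the NRF1 motif (GCGC and again GCGC, with any 2 bases between) in 14 (20.3%) against 6.43%, and the YY1 motif in 21 (30.4%) against 6.23%. At least one of the 3 was in 47 windows (68.1%) against 19.3% of all. GGGCGGGG was in 16 (23.2%) against 17.8%, and the CREB and ATF motif TGACGTCA in 2 (2.90%), those of Mrpl16 and Mrpl49, against 1.88%. GCGTGGGNG, a motif of WT1, was in 2 windows (2.90%), those of Mrpl14 and Mrps27, against 1.84% of all. The members' windows had a median GC content of 58.3% against 52.7% for all, and the part of GC content in these shares was not tested. The motif shares describe letters in a fixed window and not sites in use.

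All 78 genes were detected in every library, and their levels are given as CPM, counts scaled to the library total and its TMM factor, divided by the length of the canonical transcript in kb. In ControlΔEC these levels ran from 2.08 ± 0.69 CPM per kb for Mrpl19 to 42.9 ± 4.33 for Mrps6 (mean ± SD, n = 3), a 20.6-fold range around a median of 12.3. In the large subunit the highest were Mrpl20 (40.1 ± 11.1), Mrpl4 (38.5 ± 6.28), whose bacterial counterpart lines the exit tunnel, and Mrpl42 (29.8 ± 9.01), and the lowest beside Mrpl19 were Mrpl55 (2.31 ± 0.20) and Mrpl47 (2.77 ± 0.49). In the small subunit Mrps33 (21.5 ± 3.02) and Mrps7 (21.3 ± 1.96) followed Mrps6, and Mrps18c (2.86 ± 0.50), Mrps35 (3.67 ± 0.91) and Mrps25 (4.20 ± 0.75) were lowest. The medians of both subunits were close, at 12.8 CPM per kb over 51 genes and 11.9 over 26. Mrps6, Mrpl20 and Mrpl4 differed by less than the SD of Mrpl20. Canonical transcripts can be longer or shorter than the form present in these cells, and 4 of the 10 genes with the highest level per kb were also among the 10 highest in CPM.

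**Figure D1:**
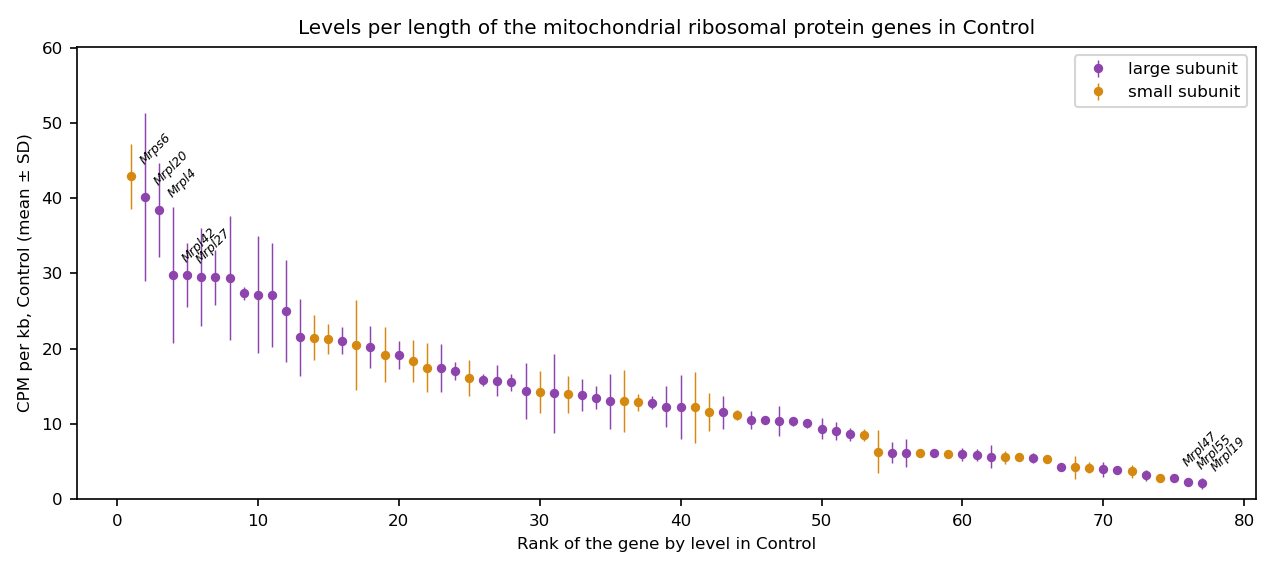
Level of each of the 77 mitochondrial ribosomal protein genes in ControlΔEC in CPM per kb of canonical transcript (points: mean of 3 libraries, bars: ± SD), ordered by level, with the large subunit in purple and the small in orange. The levels run from 42.9 (Mrps6) to 2.08 (Mrpl19), and genes of both subunits lie along the whole order.

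Wt1 itself fell from 145, 110 and 149 CPM in ControlΔEC to 14.0, 18.4 and 21.3 CPM in Wt1KOΔEC, a log2 fold change of -2.91 ± 0.22 (SE; edgeR's quasi-likelihood test, adjusted p = 0.0032). The libraries held between 26037324 and 44779020 counts, so that 3 counts, the floor of detection, came to between 0.0608 and 0.119 CPM, for counting error only. Summed EC markers overlapped between the genotypes (9658 to 12239 CPM against 9207 to 11415), as did cardiomyocyte markers (237 to 329 against 199.8 to 430.1). The epicardial (37.1 to 49.0 against 65.5 to 75.0), fibroblast (755 to 1043 against 1399 to 1625) and endocardial (338 to 434 against 653 to 766) sums were higher in Wt1KOΔEC without overlap, and the mural sum (466 to 632 against 324 to 379) was lower. The macrophage (253 to 781 against 188 to 271), erythroid (6573 to 14358 against 5137 to 8536) and lymphatic (267 to 283 against 277 to 370) sums overlapped. Rn18s took 13.2 to 15.3% of counts in ControlΔEC and 21.1 to 26.5% in Wt1KOΔEC, and genes of the mitochondrial genome took 5.21 to 6.61% and 1.68 to 4.57%. The part of these differences in the members' values was not tested.

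Taken one by one, none of the 78 genes was a differentially expressed gene (DEG, adjusted p under 0.05 with an absolute log2 fold change above 0.58) in edgeR's quasi-likelihood test, against 0.0736% of all genes tested (12 of 16296, with 0.0491% higher and 0.0245% lower), and the smallest adjusted p of a member was 0.108. The level was nevertheless higher in Wt1KOΔEC for 72 genes and lower for 6, while 48% of all genes were higher, and with library totals alone in place of TMM factors 57 of the 78 were higher. At an unadjusted p under 0.05 in the same test 16 members (20.5%) were higher, where 5.96% of all genes were, and 0 were lower, where 7.12% were. With library totals alone these counts were 6 and 1, against 3.47% and 11.3% of all genes. DESeq2 called 5 members (6.41%) as higher DEGs, against 2.14% of all genes, and 0 as lower DEGs, against 2.57% (4.71% in either direction).

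The median log2 fold change of the 78 genes was 0.31, with quartiles of 0.14 and 0.51, against -0.03 over all genes and -0.01 over protein-coding genes. Library totals alone moved the median of all genes to -0.18 and that of the members to 0.16, so that the distance between them stayed at 0.34. A total of 12 genes lay above 0.58 and 60 between 0 and 0.58, so that most differences were smaller than the fold change limit. In 33 genes (42.3%) all 3 Wt1KOΔEC libraries lay above all 3 ControlΔEC libraries, where 10.3% of all genes did, and in 1 gene, Mrpl48, all 3 lay below, where 8.97% did. With library totals alone these counts were 17 and 2, and the shares of all genes without overlap under that scaling were not computed. The other 44 genes overlapped between the genotypes.

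**Figure D2:**
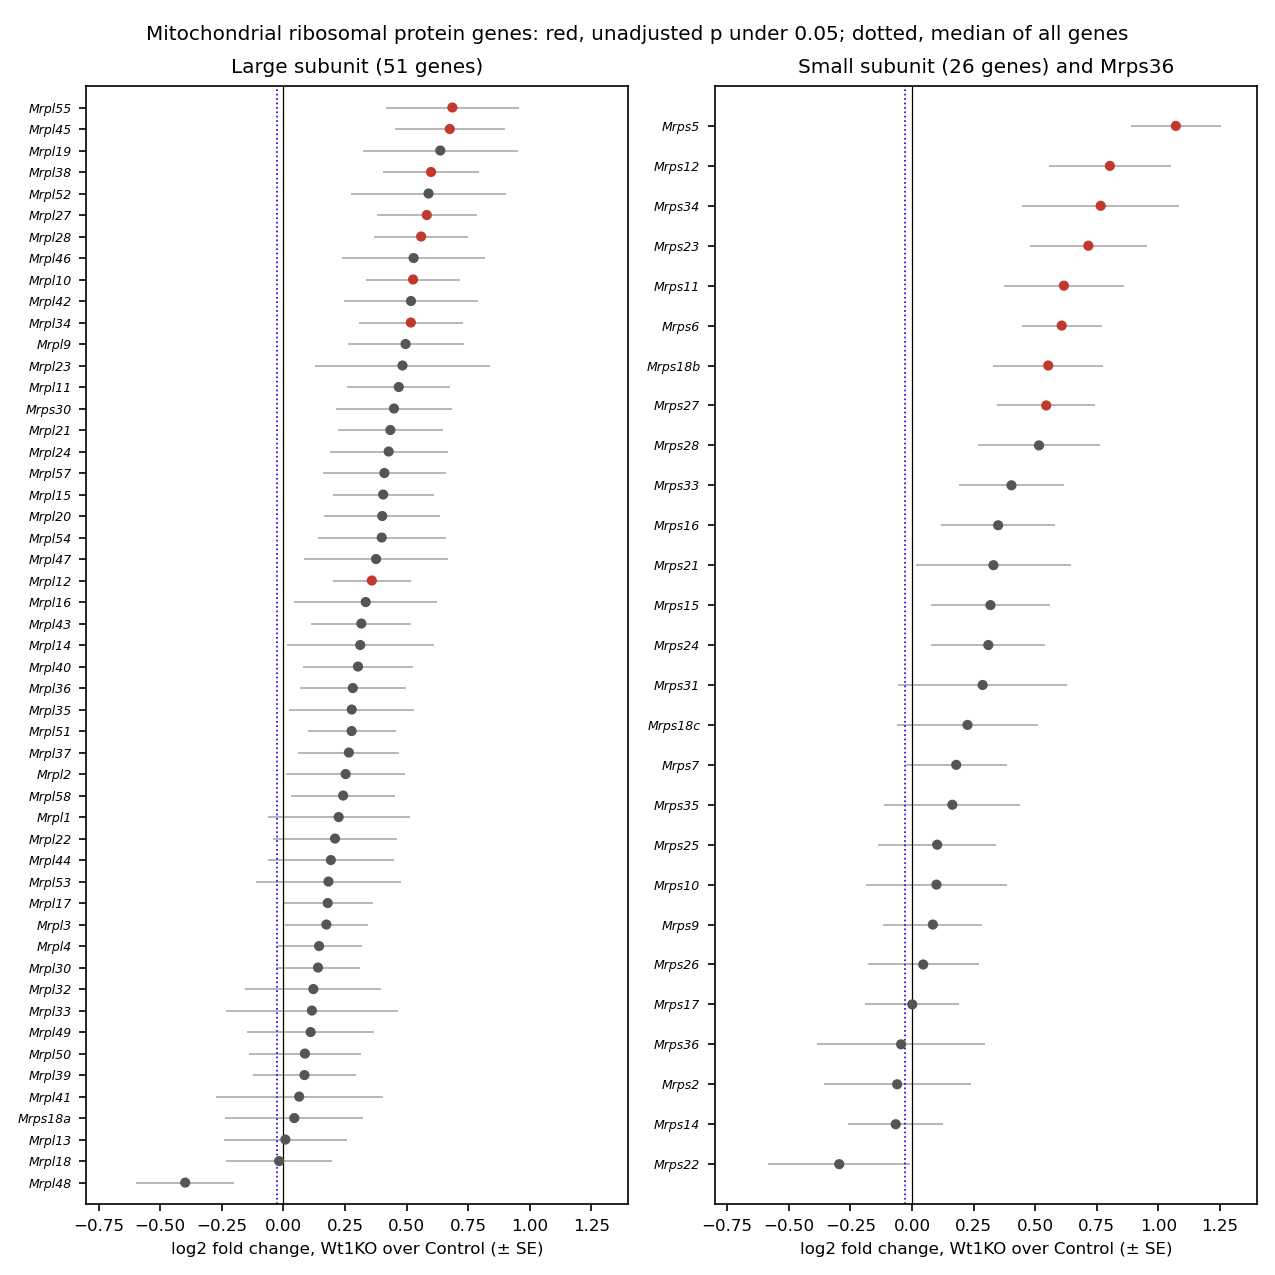
Log2 fold change of Wt1KOΔEC over ControlΔEC from edgeR (x axis, points, bars: ± SE) for each gene of the large subunit (left) and of the small subunit with Mrps36 (right), with the median of all genes as a dotted line. The 16 genes in red had an unadjusted p under 0.05 and all lie to the right of 0, and 72 of the 78 points do (57 with library totals alone).

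Summed over the 78 genes, the level was 2030, 1861 and 1791 CPM in ControlΔEC and 2395, 2274 and 2356 CPM in Wt1KOΔEC. Every Wt1KOΔEC library lay above every ControlΔEC library, with means of 1894 ± 123 and 2342 ± 62.1 CPM (SD, n = 3) and a ratio of 1.24 (1.11 with library totals alone). As a share of all counts the genes took between 0.190 and 0.205% in ControlΔEC and between 0.219 and 0.229% in Wt1KOΔEC. ControlΔEC replicate 1 was the closest to the mutant libraries and held the highest level of the 6 libraries for 10 genes, against 0 and 1 genes in ControlΔEC replicates 2 and 3, while Wt1KOΔEC replicates 1, 2 and 3 held the highest for 35, 13 and 19 genes. The median coefficient of variation of a member was 15.2% in ControlΔEC and 11.8% in Wt1KOΔEC.

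The summed level of both subunits was higher in Wt1KOΔEC by similar ratios. The large subunit summed to 1406, 1267 and 1224 CPM in ControlΔEC and 1620, 1546 and 1612 CPM in Wt1KOΔEC, a ratio of 1.23, with 49 of 51 genes higher (39 with library totals alone) and a median log2 fold change of 0.31. The small subunit summed to 615, 584 and 559 CPM against 765, 721 and 735 CPM, a ratio of 1.26, with 23 of 26 genes higher (18 with library totals alone) and a median of 0.31. The genotypes did not overlap in either sum. The large sum was between 2.12 and 2.29 times the small sum in every library, so the proportion of the 2 subunits moved little among libraries. At an unadjusted p under 0.05 in edgeR 8 of 51 large-subunit and 8 of 26 small-subunit genes were higher, where 5.96% of all genes were. With library totals alone 2 and 4 were higher, where 3.47% of all genes were, and 1 large-subunit gene was lower, where 11.3% were. The difference between the subunits was not tested. DESeq2 called 4 of 26 small-subunit and 1 of 51 large-subunit genes as higher DEGs, where 2.14% of all genes were. The 47 genes classed here as having a bacterial counterpart and the 30 classed as specific to mitochondria had medians of 0.32 and 0.29, with 44 and 28 genes higher. The split is approximate, since it puts Mrps18a in the former class and Mrps18b in the latter, though both are paralogs of the same bacterial protein.

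**Figure D3:**
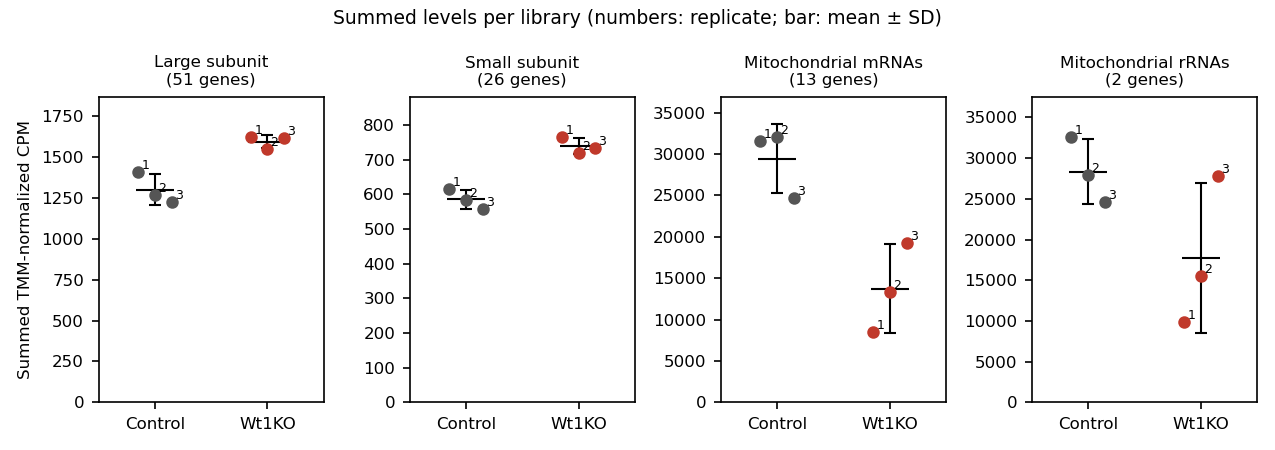
Summed TMM-normalized CPM per library (points, numbered by replicate; bars: mean ± SD, n = 3) for the large subunit, the small subunit, the mRNAs and the rRNAs of the mitochondrial genome in ControlΔEC (grey) and Wt1KOΔEC (red), each panel with its own axis from 0. The subunit sums lie higher in Wt1KOΔEC without overlap (1224 to 1406 against 1546 to 1620 CPM for the large), the mRNA sums lie lower without overlap, and the rRNA sums overlap.

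Among small-subunit genes Mrps5 (chr2:127429135-127448789, plus strand, GRCm39) differed most. Its level was 27.5, 25.8 and 28.1 CPM in ControlΔEC and 60.0, 49.0 and 62.0 CPM in Wt1KOΔEC, and the groups were far apart relative to the spread within them. The log2 fold change was 1.07 ± 0.18 (SE), with an adjusted p of 0.108 in edgeR's quasi-likelihood test and 1.8e-06 in DESeq2, and between 1.8e-06 and 0.381 over all alternatives. Mrps5 is the counterpart of a bacterial protein near the entry of the mRNA channel. It lies 22.4 Mb from Wt1 on chromosome 2, where the other members are Mrps26 (log2 fold change 0.05), Mrps2 (-0.06) and Mrpl41 (0.06), at 25.4, 76.6 and 80.1 Mb from Wt1.

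Mrps6 (chr16:91854965-91909592, plus strand, GRCm39) had 42.0, 49.8 and 42.0 CPM in ControlΔEC and 71.1, 66.5 and 66.2 CPM in Wt1KOΔEC, again without overlap. Its log2 fold change was 0.61 ± 0.16, with adjusted p-values of 0.209 in edgeR's quasi-likelihood test and 0.00962 in DESeq2. The annotation places 52.4% of its transcript over other genes on the same strand, Gm49711 and Slc5a3, a myo-inositol transporter gene that starts at the same base, so the split of reads between them rests on the authors' quantification. Slc5a3 had 49.8, 21.8 and 53.5 CPM against 34.2, 43.4 and 49.9 CPM, a log2 fold change of 0.03 ± 0.32, and its groups overlapped.

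Mrps12 (chr7:28439066-28441680, minus strand, GRCm39), a protein of the decoding centre, had 15.7, 10.9 and 12.5 CPM in ControlΔEC and 25.1, 22.2 and 20.9 CPM in Wt1KOΔEC, with a log2 fold change of 0.80 ± 0.25 and adjusted p-values of 0.243 in edgeR's quasi-likelihood test and 0.0361 in DESeq2. Its start lies 129 bases from that of Sars2, the mitochondrial seryl-tRNA synthetase, which runs the other way. Sars2 had 18.1, 16.1 and 7.77 CPM against 18.9, 16.1 and 21.5 CPM, a log2 fold change of 0.43 ± 0.34, and its groups overlapped. Mrps23 (chr11:88095176-88102345, plus strand, GRCm39) had 11.4, 12.8 and 10.7 CPM against 19.2, 18.6 and 19.5 CPM. Its groups were tight and apart, with a log2 fold change of 0.72 ± 0.24 and adjusted p-values of 0.267 in edgeR's quasi-likelihood test and 0.0358 in DESeq2.

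The other small-subunit genes at an unadjusted p under 0.05 in edgeR's quasi-likelihood test did not pass the adjusted threshold in either tool. Mrps34 had 10.5, 16.3 and 7.56 CPM in ControlΔEC and 20.1, 17.6 and 20.8 CPM in Wt1KOΔEC, a log2 fold change of 0.77 ± 0.32, and the second ControlΔEC library came close to the mutant values. Mrps27, a pentatricopeptide repeat protein of the mitochondrial ribosome, had 28.2, 23.7 and 27.2 CPM against 43.8, 36.9 and 34.6 CPM (0.54 ± 0.20). Mrps18b, one of 3 paralogs of a single bacterial protein, had 26.1, 19.5 and 25.3 CPM against 28.8, 39.7 and 35.5 CPM (0.55 ± 0.22). The other paralogs lay nearer 0, Mrps18c at 0.22 ± 0.29 and Mrps18a, which sits in the large subunit, at 0.04 ± 0.28, and the differences among the 3 were not tested.

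Mrps11 had 17.4, 14.5 and 12.3 CPM against 21.0, 25.6 and 21.2 CPM (0.62 ± 0.24), without overlap. Mrpl46, which shares its start region, had 20.5, 12.4 and 11.1 CPM against 23.2, 20.6 and 19.7 CPM (0.53 ± 0.29), where the first ControlΔEC library lay within the mutant range. Small-subunit genes below 0 were Mrps22 (-0.30 ± 0.29), Mrps14 (-0.07 ± 0.19) and Mrps2, with unadjusted p-values between 0.33 and 0.843 in edgeR's quasi-likelihood test. Mrps22 had 17.4, 12.1 and 12.2 CPM against 9.62, 12.7 and 11.6 CPM, and its groups overlapped. Mrps36, the dehydrogenase subunit, lay at -0.04 ± 0.34.

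**Figure D4:**
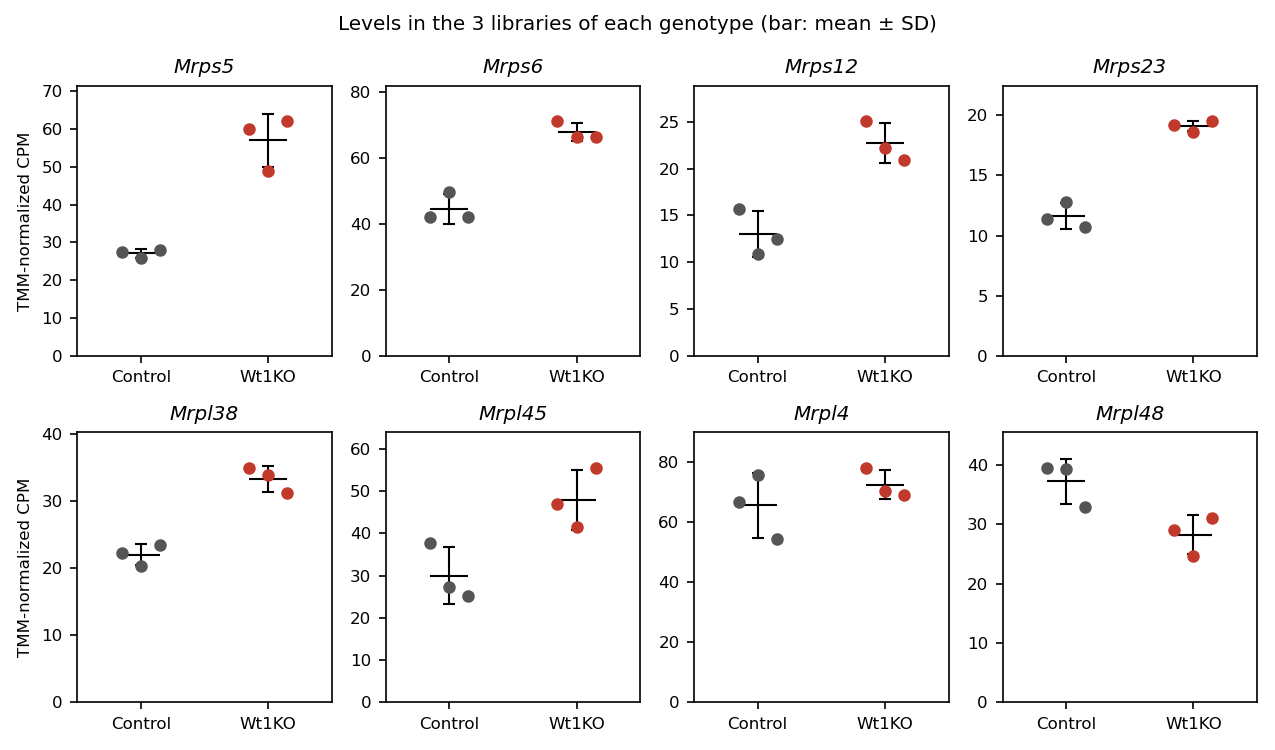
TMM-normalized CPM of 8 genes in the 3 ControlΔEC (grey) and 3 Wt1KOΔEC (red) libraries, with the mean ± SD as bars and each y axis from 0. Mrps5, Mrps6, Mrps12, Mrps23, Mrpl38 and Mrpl45 lie higher in Wt1KOΔEC without overlap, Mrpl4 overlaps (fitted change of 0.14, and -0.011 with library totals alone), and Mrpl48 lies lower without overlap.

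In the large subunit Mrpl38 (chr11:116022641-116029700, minus strand, GRCm39), a protein of the central protuberance, had 22.3, 20.3 and 23.4 CPM in ControlΔEC and 35.0, 33.8 and 31.1 CPM in Wt1KOΔEC. Its log2 fold change was 0.60 ± 0.20, with adjusted p-values of 0.261 in edgeR's quasi-likelihood test and 0.0296 in DESeq2, the only large-subunit gene past the threshold of DESeq2. Mrpl45 (chr11:97206542-97232865, plus strand, GRCm39), which anchors the large subunit to the inner membrane, had 37.7, 27.2 and 25.1 CPM against 46.8, 41.5 and 55.5 CPM. Its log2 fold change was 0.67 ± 0.22, with adjusted p-values of 0.266 in edgeR's quasi-likelihood test and 0.0785 in DESeq2. Neither gene overlapped between the genotypes.

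The 2 stalk genes, whose products help to bring translation factors to the ribosome, were both among the 16. Mrpl12 had 56.0, 51.5 and 47.0 CPM in ControlΔEC and 68.2, 64.8 and 64.9 CPM in Wt1KOΔEC (0.36 ± 0.16), and Mrpl10 had 36.6, 38.6 and 29.5 CPM against 47.5, 46.6 and 56.6 CPM (0.53 ± 0.19). Mrpl11, of the factor-binding region beside them, lay at 0.47 ± 0.21 with an unadjusted p of 0.0509 in edgeR's quasi-likelihood test, just outside that limit, while Mrpl12 lay just inside at 0.0481. Near the peptidyl transferase centre Mrpl27 had 22.7, 19.5 and 26.0 CPM against 33.6, 34.7 and 33.9 CPM (0.58 ± 0.20). The other genes of that region lay lower, Mrpl16 at 0.33 ± 0.29, Mrpl2 at 0.25 ± 0.24 and Mrpl3 at 0.17 ± 0.17.

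Mrpl28 had 34.7, 33.0 and 27.2 CPM against 42.3, 45.4 and 52.0 CPM (0.56 ± 0.19), Mrpl34 had 17.6, 18.6 and 17.6 CPM against 27.2, 26.4 and 23.2 CPM (0.52 ± 0.21), and Mrpl55 had 9.54, 8.01 and 8.91 CPM against 15.2, 14.3 and 13.1 CPM (0.69 ± 0.27). None of the 3 overlapped between the genotypes. At the exit tunnel Mrpl23 lay at 0.48 ± 0.35, Mrpl24 at 0.43 ± 0.24 and Mrpl22 at 0.21 ± 0.25. The RNase III-like Mrpl44 lay at 0.19 ± 0.26, and Mrpl58, a hydrolase that frees stalled ribosomes, at 0.24 ± 0.21.

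Of the highly expressed genes, Mrpl20 had 39.7, 29.4 and 22.9 CPM against 42.7, 37.1 and 41.8 CPM (0.40 ± 0.24), Mrpl4 lay at 0.14 ± 0.17 (-0.011 with library totals alone) and Mrpl42 at 0.52 ± 0.27. Mrps33 and Mrps7 lay at 0.40 ± 0.21 and 0.18 ± 0.20. At the low end Mrpl19 lay at 0.64 ± 0.31, Mrpl47 at 0.38 ± 0.29, Mrps35 at 0.16 ± 0.28 and Mrps25 at 0.10 ± 0.24 (-0.058 with library totals alone). Genes with a mean of at least 20 CPM (48 genes) had a median log2 fold change of 0.28 and the 30 others one of 0.33, so the shift was not limited to genes of low or high level.

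Only Mrpl48 (chr7:100194939-100257508, minus strand, GRCm39), another protein of the central protuberance, was lower in Wt1KOΔEC without overlap. It had 39.5, 39.4 and 32.8 CPM in ControlΔEC and 29.1, 24.6 and 31.1 CPM in Wt1KOΔEC, and the lowest ControlΔEC and the highest Wt1KOΔEC library were close. Its log2 fold change was -0.40 ± 0.20, with an adjusted p of 0.446 in edgeR's quasi-likelihood test. The remaining large-subunit gene below 0 was Mrpl18, at -0.02 ± 0.22.

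By position, chromosome 11 carried 11 members, all 11 above 0, with a median log2 fold change of 0.53, where all 1238 genes tested there had one of 0.02. Chromosome 11 held 7 of the 16 genes at an unadjusted p under 0.05 in edgeR's quasi-likelihood test, where 5.96% of all genes were higher. These 7 were Mrpl10, Mrpl12, Mrpl27, Mrpl38, Mrpl45, Mrpl55 and Mrps23. The share of all genes of this chromosome at that limit was not computed. This chromosome was singled out after the values were seen. Chromosome 17 carried 8 members with a median of 0.28 and chromosome 6 carried 7 with one of 0.28.

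Because many of these genes share a start region with a neighbour on the other strand, the neighbours were read as well. A protein-coding gene started on the other strand within 1000 bases before or 200 bases after the start of 20 members. One such pair was Mrps11 with Mrpl46, and 17 of the other neighbours were tested. Their median log2 fold change was 0.02, with 9 of 17 above 0, where the members facing them had a median of 0.31. At an unadjusted p under 0.05 in edgeR's quasi-likelihood test were 2 of the 17, where 5.96% of all genes were higher and 7.12% lower. They were Fau, a gene for a cytoplasmic ribosomal protein that faces Mrpl49 (0.72 ± 0.21 against 0.11 ± 0.26), and Zfp189, which faces Mrpl50 (-0.83 ± 0.30 against 0.09 ± 0.23). Twnk, the mitochondrial DNA helicase, lay at 0.83 ± 0.42 and faces Mrpl43 at 0.32 ± 0.20. The difference between members and neighbours was not tested.

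Reads of overlapping genes cannot be told apart by strand here, since the library kit does not mark it. Overlap was counted between canonical transcripts only. The 36 members whose canonical transcript overlaps that of no other gene had 35 genes above 0 and a median of 0.31. The 30 with an overlap of at least 10% of the transcript had 26 above 0 and a median of 0.31. Exons outside the canonical transcripts can still be shared in the former set, where the annotated spans of Mrps11 and Mrpl46 overlap. Among those with at least 10% were Mrpl34 (82.0% of the transcript), Mrps18c (70.4%), Mrps18b (49.5%) and Mrpl10 (49.4%). Of the 6 pseudogenes, Mrpl23-ps1 had 3.93, 6.37 and 8.71 CPM in ControlΔEC and 10.5, 8.14 and 4.99 CPM in Wt1KOΔEC, next to 8.22, 6.55 and 7.08 CPM against 7.01, 10.7 and 12.8 CPM for Mrpl23. The value of Mrpl23 is uncertain for this reason. Mrpl48-ps stayed at or under 1.28 CPM and the other 4 had no more than 4 counts in any library.

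The remaining proteins of the mitochondrial ribosome, whose genes carry other names, had 4 of 5 genes above 0 (also with library totals alone). Their median log2 fold change was 0.45 (0.31 with library totals alone). Aurkaip1, a small-subunit protein, had 29.1, 22.8 and 22.5 CPM in ControlΔEC and 40.1, 34.6 and 42.0 CPM in Wt1KOΔEC, a log2 fold change of 0.65 ± 0.21 with adjusted p-values of 0.252 in edgeR's quasi-likelihood test and 0.0452 in DESeq2. Gadd45gip1, of the large subunit, had 9.01, 10.7 and 6.83 CPM against 15.7, 12.5 and 16.6 CPM (0.76 ± 0.30). The GTP-binding Dap3 and the small-subunit proteins Chchd1 and Ptcd3 lay at 0.21 ± 0.20, 0.45 ± 0.31 and -0.05 ± 0.24.

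Assembly factors had 19 of 26 genes above 0 and a median of 0.22 (15 genes and 0.053 with library totals alone), and 2 were higher at an unadjusted p under 0.05 in edgeR's quasi-likelihood test (1 with library totals alone), where 5.96% of all genes were. The 2 were Gtpbp10, a GTPase for maturation of the large subunit, with 3.93, 10.6 and 6.45 CPM against 16.0, 14.9 and 20.5 CPM (1.29 ± 0.39), and the pseudouridine synthase Rpusd4 (0.76 ± 0.31). The methyltransferase Mettl15 lay at -0.97 ± 0.51. Translation factors had 9 of 15 genes above 0 and a median of 0.18 (8 genes and 0.033 with library totals alone). Guf1, a GTPase that acts on stalled elongation, had 25.3 to 27.4 CPM in ControlΔEC and 9.06 to 17.9 CPM in Wt1KOΔEC without overlap, a log2 fold change of -1.03 ± 0.29 with adjusted p-values of 0.22 in edgeR's quasi-likelihood test and 0.0256 in DESeq2. The elongation factor Tsfm lay at 0.63 ± 0.24, and the ribosome recycling factor Mrrf at 0.45 ± 0.23.

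Mitochondrial tRNA synthetases had 11 of 17 genes above 0 and a median of 0.20 (9 genes and 0.024 with library totals alone). At an unadjusted p under 0.05 in edgeR's quasi-likelihood test were 0 of them, where 5.96% of all genes were higher and 7.12% lower. Among them Lars2 lay at 0.40 ± 0.19 and Mars2 at -0.57 ± 0.30. Genes for mitochondrial transcription and its regulators had 9 of 15 above 0 (4 with library totals alone) and a median of 0.04 (-0.13 with library totals alone). Nrf1, whose motif was searched above, had 43.5, 38.1 and 43.1 CPM against 62.2, 51.1 and 61.6 CPM, a log2 fold change of 0.49 ± 0.17 with adjusted p-values of 0.285 in edgeR's quasi-likelihood test and 0.0757 in DESeq2. Myc lay at 0.45 ± 0.21 and Tfam, which packages mitochondrial DNA, at 0.44 ± 0.27. Gabpa, the DNA-binding subunit of GABP, and Yy1 lay at -0.16 ± 0.25 and -0.41 ± 0.33.

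The messages that mitochondrial ribosomes translate had lower levels in Wt1KOΔEC. The 13 mRNAs of the mitochondrial genome summed to between 24632 and 32023 CPM in ControlΔEC and between 8506 and 19268 CPM in Wt1KOΔEC, a ratio of 0.47. Of the 13, 10 lay below 0 (also with library totals alone), with a median log2 fold change of -0.96 (-1.10 with library totals alone). In edgeR's quasi-likelihood test 8 of them were lower at an unadjusted p under 0.05, where 7.12% of all genes were (10 with library totals alone, where 11.3% were). None passed the DEG threshold in that test, while 7 passed it in DESeq2, against 4.71% of all genes. The cytochrome c oxidase gene mt-Co1 had a log2 fold change of -1.13 ± 0.24, and the complex I genes mt-Nd5 and mt-Nd1 of -1.15 ± 0.25 and -1.33 ± 0.31. The rRNAs, mt-Rnr1 and mt-Rnr2, lay at -0.65 ± 0.41 and -0.68 ± 0.31, with sums of 24563 to 32574 against 9856 to 27784 CPM that overlapped. The cDNA was primed with oligo-dT. The mitochondrial share was 1.68%, 2.78% and 4.57% in Wt1KOΔEC replicates 1, 2 and 3, where the nuclear members summed to 2395, 2274 and 2356 CPM. A link between the mitochondrial share and the members' sum was not tested.

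The proteins of the cytoplasmic ribosome had 82 of 82 genes tested above 0 (80 with library totals alone) and a median log2 fold change of 0.49 (0.35 with library totals alone). At an unadjusted p under 0.05 in edgeR's quasi-likelihood test 63 were higher, where 5.96% of all genes were (43 with library totals alone, where 3.47% were). Of the 82 genes 1 was a DEG in that test, Rps29 (1.10 ± 0.14, adjusted p = 0.0445), against 0.0736% of all genes. In DESeq2 29 were DEGs, against 4.71% of all genes. Their sum was 1.41 times higher in Wt1KOΔEC, where that of the mitochondrial ribosomal proteins was 1.24 times higher, and the difference between both lists was not tested.

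**Figure D5:**
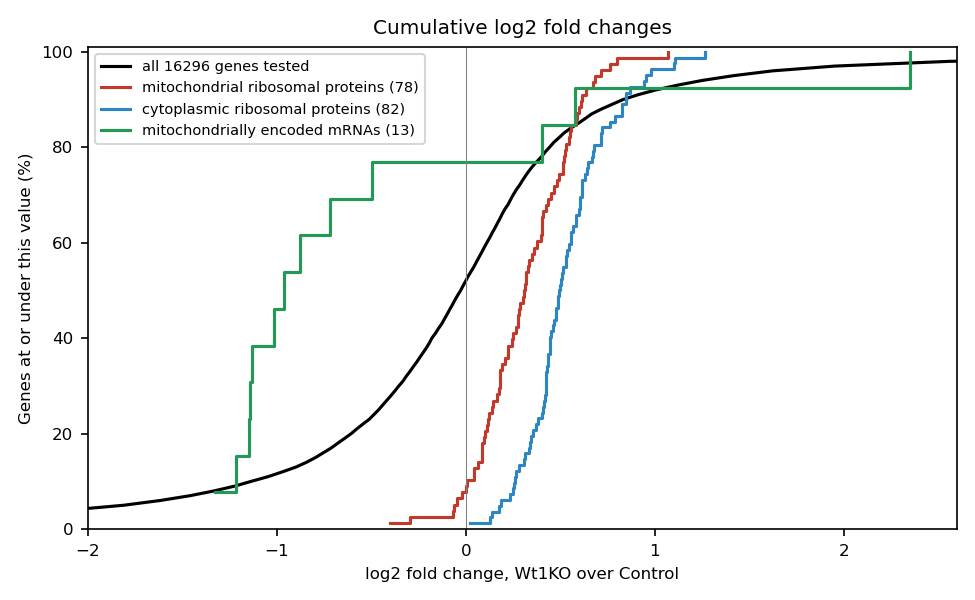
Cumulative share of genes (y axis, %) at or under each log2 fold change of Wt1KOΔEC over ControlΔEC (x axis) for all 16296 genes tested (black), 78 mitochondrial ribosomal protein genes (red), 82 cytoplasmic ones (blue) and 13 mRNAs of the mitochondrial genome (green), under TMM scaling. The medians lie at -0.03, 0.31, 0.49 and -0.96, and library totals alone move them to -0.18, 0.16, 0.35 and -1.10. The rightmost green step is mt-Nd4l, which had no more than 0.815 CPM in any library.

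The count of members higher at an unadjusted p under 0.05 in edgeR's quasi-likelihood test, 16 with all libraries, was lower with a mutant library left out. It was 10 without Wt1KOΔEC replicate 1, 10 without replicate 2 and 8 without replicate 3, and the share of all genes higher at that limit was also lower, at 3.48%, 4.04% and 4.13% against 5.96%. The median log2 fold change moved less, between 0.28 and 0.38 over the 6 fits that left out 1 library, and 58 of the 72 genes above 0 remained above 0 in all of them.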

How the data were processed

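ECs were profiled by SMART-seq2 with Nextera XT fragmentation, without molecular identifiers or strand marks. The authors aligned reads with STAR 2.7.8a and estimated counts per gene with RSEM 1.3.0, and they deposited the expected counts as whole numbers without normalization. The methods name GRCm39 with GENCODE vM27 and the submitters' processing notes name GRCm38, a difference that could not be settled from gene identifiers. The count table has no coordinates. Genotype and replicate came from the labels, which name no batch, and library identifiers differ by genotype, so that a batch that follows genotype cannot be told apart from it.

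Counts were analysed in R 4.3.3. Genes that reached 10 counts in 2 or more libraries were compared with edgeR 4.0.16 (TMM, quasi-likelihood F test, Benjamini-Hochberg adjustment over 16296 genes). DEGs needed an adjusted p under 0.05 together with a log2 fold change beyond 0.58 in size, and each SE was obtained by dividing the fitted change by the square root of F. DESeq2 1.42.0, the tool the authors used, was run on the whole table at default settings as an alternative. With 3 libraries a genotype an exact two-sided permutation test cannot go below p = 0.1, and lists are described by counts and medians only.

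Positions, canonical transcript lengths and overlaps came from GENCODE vM39 on GRCm39, matched by gene identifier (16238 of the genes tested), and promoters from RefSeq on GRCm38.p6. Members, lists and tests were chosen with earlier results of these data known. Genes named are members past the threshold in either tool, the 8 of each subunit with the smallest p, the 3 highest and lowest of each subunit per kb, those with the largest changes, members with a named role, up to 3 genes of each related list, and Wt1. Of the genes this rule would name, 1 is not reported here. Mrpl46, Mrpl48, Mrps2, Mrps14, Mrps26, Mrpl41, Mrpl18, Gabpa, Yy1, Ptcd3, neighbouring genes and pseudogenes were named after their values were seen. So were Mrps22, Mrpl43, Mrpl49, Mrpl50, Dap3 and mt-Nd4l.

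Alternatives were limma-voom (limma 3.58.1), DESeq2, RLE, upper-quartile and library-size scaling, other filters, no fold change limit, a block for the replicate number, length and GC offsets (splines with 5 degrees of freedom, also with the block), leaving out Rn18s with the mitochondrial genome, and each library left out. Offsets from the length of all annotated exons were chosen after seeing the data. Steps were tested on simulated data.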

Additional observations from a re-analysis of the deposited data

How the results depend on the processing

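No member was a DEG in edgeR under any scaling, offset or omission of a library, while DESeq2 called 5, and edgeR called 1, Mrps5, without a filter (adjusted p = 0.00879) and with at least 10 counts in every library (0.0356). The count of members higher at an unadjusted p under 0.05, 16 as reported, was 6 with library size only, 8 with length and GC offsets, and 5 with those offsets and the replicate block. The shares of all genes higher at that limit were 3.47%, 5.39% and 5.14% in these settings, against 5.96% as reported. Leaving out 1 library gave 8 members (without Wt1KOΔEC replicate 3) to 18 (without ControlΔEC replicate 1), where 4.13% and 6.19% of all genes were higher. The count lower at that limit was 1 with DESeq2 and with library size only, where 6.18% and 11.3% of all genes were lower, and 0 to 1 with a library left out. Library size only also gave a median log2 fold change of 0.16, 17 members higher and 2 lower without overlap, and a summed ratio of 1.11. The shares of all genes without overlap were not computed for that scaling. With a library left out the median was 0.28 to 0.38. Mrpl4 (-0.011) and Mrps25 (-0.058) turned negative with library size only, and Mrps25 ranged from -0.071 (without Wt1KOΔEC replicate 1) to 0.23 with a library left out, and was also negative without ControlΔEC replicate 3 (-0.025). The causes were not tested. Over all alternatives the members' median stayed 0.27 to 0.40 above that of all genes, and 56 of 78 were above 0 in every fit. The replicate block gave 13 members higher at an unadjusted p under 0.05 in edgeR, where 5.62% of all genes were, and 0 DEGs. Correlations of same-numbered libraries (0.0566, 0.0045 and 0.0201) did not pair them.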

Other observations

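Across the 78 members the log2 fold change had a Spearman rho of -0.22 with canonical transcript length and 0.32 with GC content, where all 16238 genes with a position had -0.14 and 0.12, given as a description since genes share the libraries. Of the 14 members at an unadjusted p under 0.05 in edgeR's quasi-likelihood test that had a promoter window, 6 held the ETS motif, 3 the NRF1 motif, 4 the YY1 motif and 1 the WT1 motif, numbers too small to compare with the other members.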
